A study of Mus musculus with 152 samples.

Results

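Livers of C57BL/6J mice, an inbred laboratory strain, were compared after 12 weeks on LIDPAD, a diet composed to induce non-alcoholic fatty liver disease (NAFLD), and after 12 weeks on a purified control diet. Mice entered either diet at 8 weeks of age, and the labels name no mutant allele, transgene or drug in either group. Total RNA of whole liver was sequenced. The comparison takes every deposited sample of that duration, 16 of 152 samples in the series, with 8 per diet. The 8 samples of a diet form 2 blocks of 4 consecutive numbers. Columns of the same block differed by no more than the sampling of read pairs gives, with a chi-square per gene of 1.98 to 2.18 over 24 pairs, against 3.51 to 6.84 over the 32 pairs from different blocks of a diet. Each block of 4 therefore entered the comparisons once, under the name library, which left 2 control and 2 LIDPAD libraries, 4 of the 38 in the series. It is not stated how many animals a library holds or whether libraries come from different animals, so p-values measure only how far these 4 libraries spread, and that spread may be technical.

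NAFLD begins with fat droplets in hepatocytes and can go on to inflammation and scarring. Hepatocytes sense their sterol and fatty acid load through transcription factors: SREBP2 raises genes of cholesterol synthesis when membranes lack sterol, SREBP1c raises genes of fatty acid synthesis after feeding, LXR raises sterol export, and PPAR alpha raises fatty acid oxidation. In the diseased liver, resident macrophages called Kupffer cells are joined by macrophages from blood monocytes, and stellate cells, which store vitamin A, can turn into cells that lay down collagen.

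The control libraries held 44889095 and 40814973 reads and the LIDPAD libraries 37442050 and 34114996, so both control libraries were deeper. Values are given in FPM, the authors' counts divided by a size factor and expressed per 1000000. FPM is not divided by transcript length, so levels of different genes are not compared. The defining hepatocyte transcript Alb, serum albumin, was 58072 and 53486 FPM in the control and 35181 and 31307 FPM in the LIDPAD libraries. Ddx3y and 3 other Y-linked transcripts were read in all 4 libraries, and Xist was at or below 0.536 FPM. Mitochondrial ribosomal RNA took 20.5 to 21.8% of reads. A log2 change is the LIDPAD mean of log2(FPM + 0.5) less the control mean, which understates the change of low genes, and SE is its standard error. Adjusted p-values are from limma, a linear model that shares the spread across genes, and genes under 0.05 are said to have risen or fallen. In whole liver, fewer cells of a type and less RNA per cell cannot be told apart.

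After 12 weeks 2078 of 13631 tested genes (15.2%) differed between the diets. Of these, 1226 rose (8.99% of tested genes) and 852 fell (6.25%). These shares stand beside every count of list members given below. Both LIDPAD libraries lay above both control libraries in each of the 1226 and below both in each of the 852. Such a separation alone was common, higher in 29.3% and lower in 28.2% of all tested genes. Only genes with at least 1 FPM in at least 2 libraries passed the filter and were tested. A gene under 1 FPM in both control libraries was thus tested only where both LIDPAD libraries were higher, and the reverse held for falls. List counts and medians below include such genes. Changes of at least 1 on the log2 scale were seen in 481 rises and 252 falls, and of at least 2 in 68 rises and 42 falls. With a library left out, fewer genes were called without either LIDPAD library and more without either control library. Such a fit takes its spread from the group that still has 2 libraries. The control libraries were further apart, with 98 tested genes more than 2-fold apart on the log2(FPM + 0.5) scale, against 49 between the LIDPAD libraries. A call lost without a LIDPAD library therefore does not show that the change rested on that library. Foxa2, for one, had a log2 change of -0.64 without LIDPAD library 1 and -0.56 with all 4 libraries. With all 14 groups of the series in 1 fit, 270 genes were called (129 higher, 141 lower). Where library totals were set equal, the median of all genes moved from -0.00 to 0.19 on the log2 scale, and 1890 genes rose while 396 fell (82.7% of calls higher, against 59.0%).

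Most gene lists described below lost calls in the fit of all 14 groups, which shares 1 estimate of the spread. Cholesterol synthesis had 16 falls there against 19, and the adipocyte-expressed genes 4 rises against 5. Among rises, the count went from 18 to 1 for fatty acid oxidation, from 10 to 3 for lipid droplet genes, from 6 to 1 for fatty acid uptake, from 12 to 1 for cytochromes P450 and from 14 to 0 for glutathione enzymes and NRF2 targets. It went from 14 to 1 for collagens, from 19 to 3 for matrix crosslinking, from 11 to 2 for matrix proteases and from 6 to 1 for stellate cell markers. Lipid-associated macrophage markers went from 16 rises to 5, Kupffer cell markers from 5 to 0, chemokines from 10 to 2, inflammatory genes from 8 to 1 and MHC class II genes from 8 to 1. Ductular markers went from 6 to 0, cell cycle genes from 11 to 0, oncofetal markers from 5 to 2, annexins from 9 to 4, tubulins and actins from 10 to 0, lysosomal genes from 9 to 2, pericentral genes from 5 to 1 and clock genes from 6 to 0. Rises went from 4 to 1 for sterol export and for hepatokines, and from 3 to 1 for bile acid genes. They went from 4 to 0 for iron and heme, retinoid, interferon-response and growth hormone-dependent genes, and from 3 to 0 for endothelial markers. Among falls, the count went from 12 to 1 for fatty acid synthesis, from 7 to 4 for sterol sensing, from 6 to 1 for bile acid genes, from 6 to 2 for glucose production, from 10 to 3 for acute phase genes and from 9 to 1 for complement and coagulation. Falls went from 11 to 0 for hepatokines, from 5 to 0 for hepatocyte identity, from 11 to 1 for the urea cycle and amino acid breakdown, from 6 to 1 for periportal genes, from 6 to 2 for one-carbon enzymes, from 12 to 1 for growth hormone-dependent genes and from 5 to 2 for clock genes. They went from 4 to 1 for iron and heme, from 3 to 1 for fatty acid uptake and matrix crosslinking and from 3 to 2 for retinoid genes. Lists with 2 or fewer calls in a direction are left out of this enumeration. Where a list had 0 or 1 calls in a direction, that count was 0 to 2 with a library left out or with equal library totals, unless another value is given with the list.

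**Figure D1:**
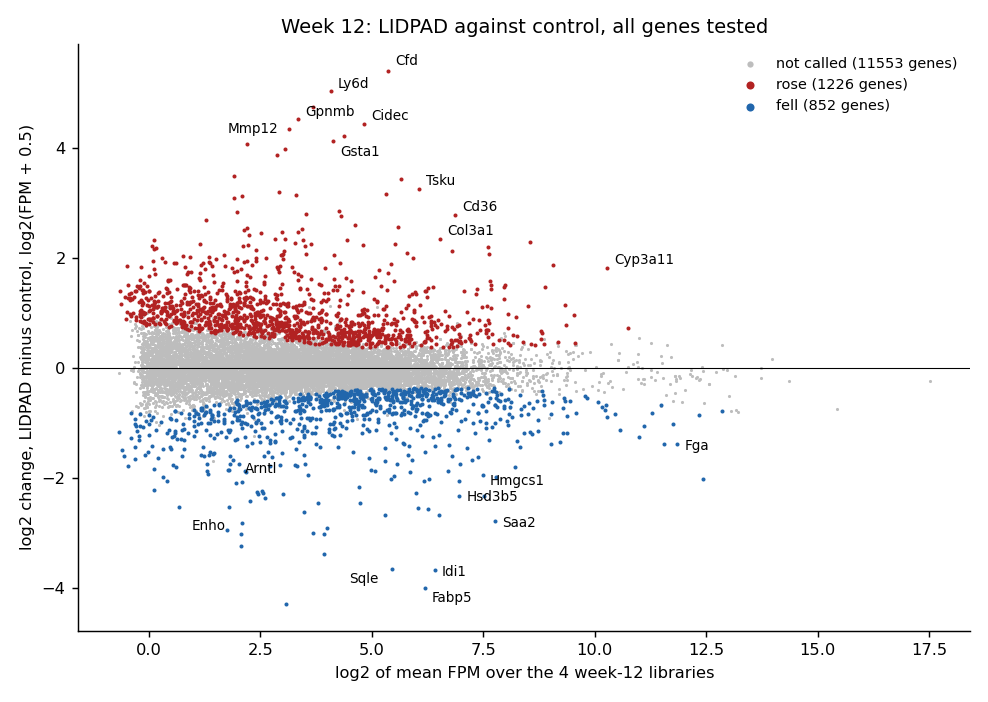
Change with diet against abundance at week 12. Each point is 1 of 13631 tested genes. The x axis is the log2 of the mean FPM over the 4 libraries and the y axis the log2 change, LIDPAD minus control. The 1226 genes that rose are red, the 852 that fell blue and the rest grey. Cfd sits highest at 5.41 and Adgrf1 lowest at -4.30.

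The genes with the largest rises were of several kinds. Cfd (chr10:79890853-79892655, GRCm38), the complement protease adipsin best known from fat cells, was 0.985 and 1.92 FPM in the control libraries and 93.0 and 69.2 FPM in the LIDPAD libraries (log2 change 5.41, SE 0.24, adjusted p = 6.03e-06). Ly6d, a GPI-anchored surface protein, was 1.24 and 0.0969 FPM in control and 30.2 and 36.0 FPM in LIDPAD (log2 change 5.04, SE 0.41, adjusted p = 0.000142). Themis, a signalling protein of developing T cells, was 0.531 and 0.390 FPM in control and 24.9 and 25.9 FPM in LIDPAD (log2 change 4.76, SE 0.17, adjusted p = 3.91e-06). All 3 were below 2 FPM in both control libraries and far higher in both LIDPAD libraries. The next were the glycoprotein gene Gpnmb (4.53, adjusted p = 5.84e-05), the lipid droplet gene Cidec (4.44, adjusted p = 6.03e-06), the macrophage elastase gene Mmp12 (4.35, adjusted p = 1.36e-05), the oxysterol-binding protein gene Osbpl3 (4.22, adjusted p = 6.03e-06), the glutathione transferase gene Gsta1 (4.13, adjusted p = 1.67e-05), the lipid droplet gene Cidea (4.08, adjusted p = 1.17e-05) and the orosomucoid gene Orm3 (3.99, adjusted p = 6.03e-06).

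Among the largest falls, Adgrf1, an adhesion G protein-coupled receptor, was 18.3 and 14.7 FPM in control and 0.295 and 0.433 FPM in LIDPAD (log2 change -4.30, SE 0.19, adjusted p = 7.18e-06). Fabp5, a fatty acid-binding protein, was 169.6 and 106 FPM in control and 6.69 and 9.33 FPM in LIDPAD (log2 change -4.0, SE 0.22, adjusted p = 1.67e-05). The falls of Idi1 and Sqle, both of cholesterol synthesis, come next and are described below. The others were the monooxygenase-like gene Moxd1 (-3.25, adjusted p = 0.0141), the acid phosphatase gene Acpp (-3.03, adjusted p = 0.000133), the GTPase-activating gene Srgap3 (-3.02, adjusted p = 3.06e-05), the nicotinic receptor subunit gene Chrna4 (-3.0, adjusted p = 4.31e-05), the trefoil peptide gene Tff3 (-2.95, adjusted p = 0.000112) and the vasopressin receptor gene Avpr1a (-2.91, adjusted p = 1.81e-05). The control libraries did not agree on Moxd1, which was 1.97 and 14.6 FPM there and 0 and 0.324 FPM in LIDPAD. DESeq2, another test run on these libraries, did not call Moxd1 (adjusted p = 0.173).

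By the size of the change in FPM, and among called genes, large rises were in Cyp3a11, a drug-metabolising cytochrome P450 (456 and 651 FPM in control, 1845 and 2026 FPM in LIDPAD), and in the genes Acaa1b, Aldh3a2 and Aldh1a1, given below. The largest falls in FPM among called genes were in transcripts of secreted plasma proteins, the protease inhibitor genes Serpina1e, Serpina1d and Serpina1c and the fibrinogen chains Fga and Fgb. Serpina1e was 10775 and 7034 FPM in control and 2182 and 2124 FPM in LIDPAD (log2 change -2.02, SE 0.24, adjusted p = 0.00101). The Serpina1 genes are near-identical copies that can share reads, so their single values are uncertain. The call of Serpina1d (-0.86, adjusted p = 0.0222) was lost without LIDPAD library 1 (adjusted p = 0.256) and without LIDPAD library 2 (adjusted p = 0.435), and that of Serpina1c (-0.78, adjusted p = 0.0475) without LIDPAD library 1 (adjusted p = 0.397) and without LIDPAD library 2 (adjusted p = 0.562).

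**Figure D2:**
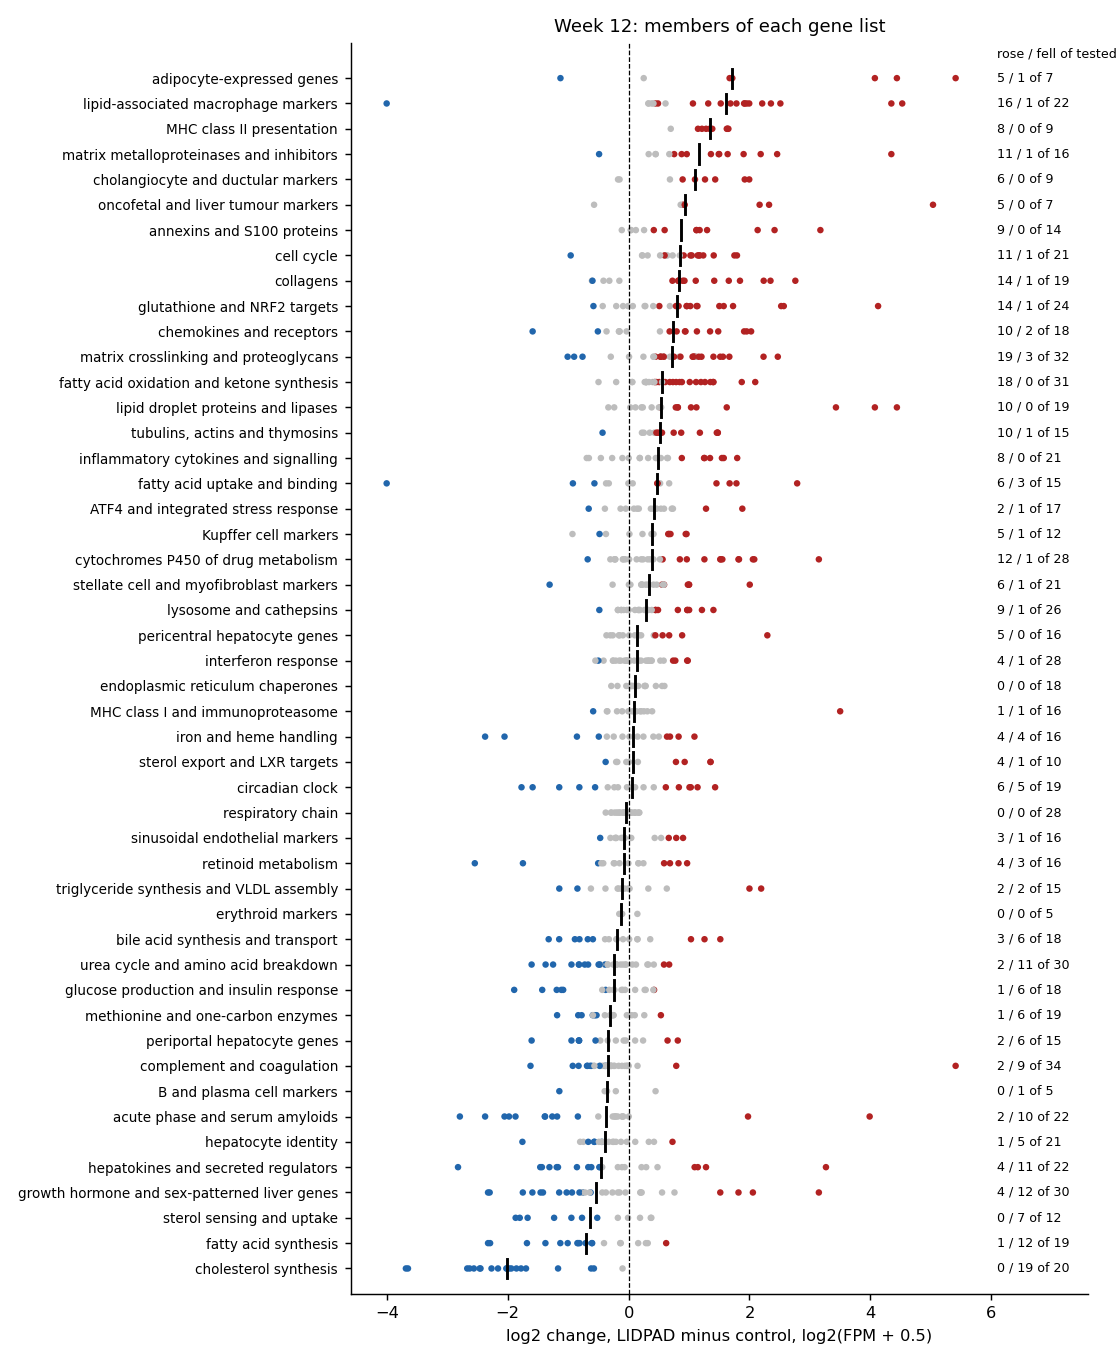
Members of the gene lists with at least 5 tested genes, at week 12. The x axis is the log2 change, LIDPAD minus control. Each point is a tested gene, red where it rose, blue where it fell and grey otherwise, and the black bar is the median of the list. The dashed line is the median of all tested genes (-0.00), and the counts at the right are members that rose and fell of those tested. Cholesterol synthesis lies farthest to the left, with a median of -2.02.

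Cholesterol synthesis was the gene list with the most uniform change. Of 20 tested members 19 fell and 0 rose, with a median log2 change of -2.02, where 6.25% of all genes fell. Idi1 (chr13:8885501-8892451, plus strand), which makes the isoprenoid building block dimethylallyl diphosphate, was 153 and 164 FPM in control and 13.5 and 10.3 FPM in LIDPAD (log2 change -3.69, SE 0.14, adjusted p = 3.91e-06). Sqle, squalene epoxidase, was 83.7 and 80.2 FPM in control and 8.17 and 4.46 FPM in LIDPAD (log2 change -3.65, SE 0.22, adjusted p = 3.16e-05). In both genes the control libraries lay close together and far above either LIDPAD library. Cyp51, which removes a methyl group from lanosterol, was 169.6 and 144 FPM in control and 27.3 and 21.4 FPM in LIDPAD (log2 change -2.67, SE 0.14, adjusted p = 1.57e-05). Falls ran along the pathway, from Hmgcs1 at the entry (-1.94, adjusted p = 4.11e-05) through the squalene synthase gene Fdft1 (-2.27, adjusted p = 1.32e-05) and Cyp51 to Msmo1, which acts on a later sterol (-2.56, adjusted p = 1.01e-05). The smallest called falls were in Ebp (-0.62, adjusted p = 0.00462) and Acat2 (-0.57, adjusted p = 0.0109), and 17 members fell without LIDPAD library 2.

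Promoters of 4 of these genes are shown because the members moved together. Each is the reference sequence from 250 bases before to 50 bases after a start of transcription, from RefSeq on GRCm38.p6, read 5′ to 3′ along the gene. Capitals mark the CCAAT box (CCAAT, or ATTGG on the other strand), the binding motif of the factor NF-Y, and the sterol regulatory element (TCACNCCAC), the motif of the SREBP factors. Idi1 lies on the plus strand at chr13:8885356-8885655, Cyp51 on the minus strand at chr5:4104648-4104947, Msmo1 on the minus strand at chr8:64733529-64733828 and Hmgcs1 on the plus strand at chr13:119690101-119690400.

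Idi1: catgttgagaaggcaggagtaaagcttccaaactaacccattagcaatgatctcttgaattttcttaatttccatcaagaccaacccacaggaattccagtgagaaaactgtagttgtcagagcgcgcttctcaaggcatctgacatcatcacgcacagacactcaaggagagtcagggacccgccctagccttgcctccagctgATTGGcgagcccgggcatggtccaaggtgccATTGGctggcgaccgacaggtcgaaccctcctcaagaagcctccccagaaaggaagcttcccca
Cyp51: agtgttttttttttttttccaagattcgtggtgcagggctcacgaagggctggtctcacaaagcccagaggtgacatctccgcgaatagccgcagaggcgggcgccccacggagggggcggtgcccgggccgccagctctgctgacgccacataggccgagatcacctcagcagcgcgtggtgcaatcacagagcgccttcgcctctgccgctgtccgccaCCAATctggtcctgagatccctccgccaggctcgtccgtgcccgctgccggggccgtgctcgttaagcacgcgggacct
Msmo1: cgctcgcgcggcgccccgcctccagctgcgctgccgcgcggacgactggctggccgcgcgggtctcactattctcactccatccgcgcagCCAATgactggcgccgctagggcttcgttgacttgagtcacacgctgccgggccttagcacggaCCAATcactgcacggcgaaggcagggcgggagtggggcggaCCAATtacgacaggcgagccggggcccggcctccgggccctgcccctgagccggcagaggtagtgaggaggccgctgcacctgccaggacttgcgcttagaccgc
Hmgcs1: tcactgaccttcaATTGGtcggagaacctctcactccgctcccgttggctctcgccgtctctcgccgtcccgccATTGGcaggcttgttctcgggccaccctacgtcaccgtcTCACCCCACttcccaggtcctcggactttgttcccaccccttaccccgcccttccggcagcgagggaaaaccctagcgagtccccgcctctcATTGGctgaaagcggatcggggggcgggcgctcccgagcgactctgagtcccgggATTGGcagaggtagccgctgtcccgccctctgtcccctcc

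Both strands were searched and no 2 motifs overlapped in these windows. Of the list, 15 genes with 18 windows were in the promoter table. A CCAAT box stood in 14 windows (77.8%) of 14 genes, while 12289 of 32851 windows of all genes (37.4%) held one. The share was not particular to this list, since 16 of 21 windows of the clock genes described below (76.2%) held a CCAAT box. The sterol regulatory element in this spelling stood in 1 window (5.56%), that of Hmgcs1, at 137 to 129 bases before the start, against 408 of all windows (1.24%). These are matches of letters and say nothing of binding.

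Genes that sense and take up sterols fell in 7 of 12 tested members and rose in 0 (median -0.65), while 2 rose with equal library totals and 1 with either control library left out. Stard4, a carrier of cholesterol in the cytosol, was 102 and 81.4 FPM in control and 29.4 and 27.2 FPM in LIDPAD (log2 change -1.67, SE 0.13, adjusted p = 0.000122). Scap, the escort of SREBP (-1.23, adjusted p = 0.000174), and Srebf2, which encodes SREBP2 (-0.95, adjusted p = 0.00245), fell as well. On the export side 4 of 10 tested members rose and 1 fell (median 0.08). Abcg5 was 35.7 and 34.4 FPM in control and 106 and 77.3 FPM in LIDPAD (log2 change 1.36, SE 0.15, adjusted p = 0.000750), and its partner Abcg8 (0.93, adjusted p = 0.00186), with which it forms the transporter that puts sterols into bile, rose too. Abcg1, which exports cholesterol to lipoproteins, also rose (1.36, adjusted p = 0.00311). Lcat, the plasma enzyme that esterifies cholesterol (-0.38, adjusted p = 0.0455), fell, and its call was lost without LIDPAD library 1 (adjusted p = 0.288) and without LIDPAD library 2 (adjusted p = 0.439). Abca1, another LXR target, was 392 and 406 FPM in control and 375 and 403 FPM in LIDPAD and was not called.

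Fatty acid synthesis was lower as well. Of 19 tested members 12 fell and 1 rose (median -0.71), and 5 fell without LIDPAD library 2, while 3 rose without control library 2. Acss2, which makes acetyl-CoA from acetate, was 327 and 284 FPM in control and 71.3 and 51.2 FPM in LIDPAD (log2 change -2.33, SE 0.16, adjusted p = 5.95e-05). Acacb, the acetyl-CoA carboxylase of mitochondria, was 236 and 229 FPM in control and 85.0 and 61.4 FPM in LIDPAD (log2 change -1.68, SE 0.15, adjusted p = 0.000262). Pnpla3, a lipase-like droplet protein whose human gene carries a NAFLD risk variant, was 14.9 and 12.5 FPM in control and 3.15 and 1.78 FPM in LIDPAD (log2 change -2.29, SE 0.23, adjusted p = 0.000459). In these 3 genes LIDPAD library 2 was the lower of the LIDPAD libraries. Acly, which makes acetyl-CoA from citrate, fell too (-1.38, adjusted p = 0.00168). The desaturases parted from the rest: Scd1, the main liver form, was 15174 and 15048 FPM in control and 18819 and 15118 FPM in LIDPAD (0.16, adjusted p = 0.777), and Scd2 rose (0.62, adjusted p = 0.0173), a call lost without LIDPAD library 1 (adjusted p = 0.116) and without LIDPAD library 2 (adjusted p = 0.0609). Srebf1, which encodes SREBP1, was not called, at 224 and 258 FPM in control and 302 and 284 FPM in LIDPAD (0.29, adjusted p = 0.146).

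Few genes of triglyceride synthesis and VLDL assembly were called. Of 15 tested, 2 were higher and 2 lower, where 8.99% of all genes rose and 6.25% fell. There were 5 falls without control library 2 and 4 rises with equal library totals. The median was -0.10, and 0.10 with equal library totals. Apoa4, an apolipoprotein of triglyceride-rich particles, was 75.8 and 62.9 FPM in control and 315 and 320.5 FPM in LIDPAD (log2 change 2.19, SE 0.12, adjusted p = 1.67e-05). Mogat1, a monoacylglycerol acyltransferase, was 0.177 and 0.195 FPM in control and 2.51 and 2.00 FPM in LIDPAD (log2 change 2.00, SE 0.23, adjusted p = 0.000936). Tm6sf2, which acts in VLDL lipidation, fell (-1.15, adjusted p = 0.00199). Apob, the structural protein of VLDL, was 14931 and 12209 FPM in control and 13590.0 and 13248 FPM in LIDPAD and was not called.

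Lipid droplet genes were higher: of 19 tested members 10 rose and 0 fell (median 0.54). Pnpla3, the lipase-like droplet protein that fell, is not in this list and was given above with fatty acid synthesis. Cidec (chr6:113424634-113435760), which fuses lipid droplets into large ones, was 1.59 and 2.60 FPM in control and 54.1 and 55.6 FPM in LIDPAD (log2 change 4.44, SE 0.19, adjusted p = 6.03e-06). Cidea, its relative known from brown fat, was 0.101 and 0.0487 FPM in control and 9.64 and 8.74 FPM in LIDPAD (log2 change 4.08, SE 0.20, adjusted p = 1.17e-05). Plin4, a droplet coat protein, was 7.57 and 8.77 FPM in control and 98.2 and 87.7 FPM in LIDPAD (log2 change 3.43, SE 0.12, adjusted p = 3.91e-06). In each of these 3 genes the LIDPAD libraries lay close together and far above the controls. Plin2, the coat protein that marks hepatocyte droplets, was 239 and 219.6 FPM in control and 528 and 471 FPM in LIDPAD (log2 change 1.12, SE 0.12, adjusted p = 0.000606). The main triglyceride lipase gene Pnpla2, by contrast, was 9.55 and 14.1 FPM in control and 11.2 and 16.3 FPM in LIDPAD, an overlap, and was not called (0.21, adjusted p = 0.582).

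**Figure D3:**
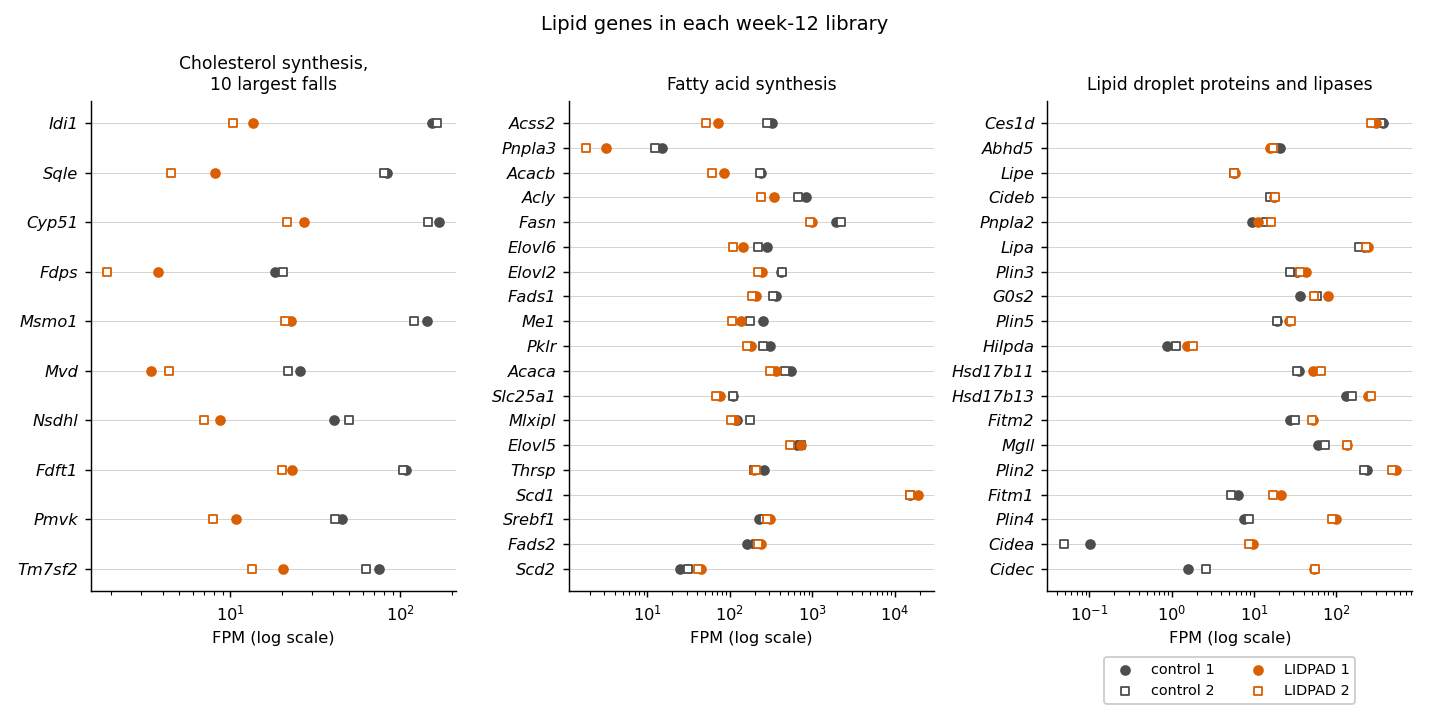
Lipid genes in each week-12 library. The x axes give FPM on a log scale, grey marks are control and orange marks LIDPAD libraries, and filled circles and open squares are libraries 1 and 2. Genes are ordered by log2 change from the lowest at the top. The left panel holds the 10 cholesterol synthesis genes with the largest falls, where LIDPAD marks lie left of control marks, and in the right panel those of Cidec, Cidea and Plin4 lie far to the right.

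Of 15 tested genes of fatty acid uptake and binding 6 rose and 3 fell (median 0.48). Cd36, a fatty acid translocase, was 31.7 and 26.6 FPM in control and 198 and 209.8 FPM in LIDPAD (log2 change 2.79, SE 0.12, adjusted p = 6.03e-06). Lpl, lipoprotein lipase, which the adult liver normally expresses little, was 13.8 and 17.5 FPM in control and 44.4 and 67.3 FPM in LIDPAD (log2 change 1.78, SE 0.20, adjusted p = 0.000750). Fabp4 (1.67, adjusted p = 0.000791) and Fabp2 (1.45, adjusted p = 0.00114), binding proteins of fat cells and macrophages and of the intestine, rose while Fabp5 fell. Fabp1, the liver's own form, was 1979.5 and 1629 FPM in control and 1970.5 and 1797 FPM in LIDPAD and was not called. Of the acyl-CoA synthetase genes, Acsl3 fell (-0.92, adjusted p = 0.00847), and the fall of Acsl5 (-0.57, adjusted p = 0.0255) was lost without LIDPAD library 1 (adjusted p = 0.0732) and without LIDPAD library 2 (adjusted p = 0.343).

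Fatty acid oxidation and ketone synthesis went up without exception among the calls: 18 of 31 tested members rose and 0 fell (median 0.55). The count was 12 without LIDPAD library 1 and 12 without LIDPAD library 2. Vnn1, a pantetheinase and PPAR alpha target, was 19.0 and 22.1 FPM in control and 87.5 and 91.1 FPM in LIDPAD (log2 change 2.10, SE 0.12, adjusted p = 1.67e-05). Acaa1b, a peroxisomal thiolase, was 175 and 297 FPM in control and 891 and 786 FPM in LIDPAD (log2 change 1.87, SE 0.22, adjusted p = 0.000973). Cyp4a10, an omega-hydroxylase of fatty acids, was 66.9 and 79.8 FPM in control and 191 and 198 FPM in LIDPAD (log2 change 1.40, SE 0.12, adjusted p = 0.000174). The control libraries were apart from each other in Acaa1b but still well below LIDPAD. Cyp4a14, a near relative of Cyp4a10 that may share reads with it, was 23.9 and 64.8 FPM in control and 112 and 98.2 FPM in LIDPAD, with a wide error (log2 change 1.40, SE 0.36, adjusted p = 0.0319). DESeq2 did not call Cyp4a14 (adjusted p = 0.293). Ppara itself was 115 and 95 FPM in control and 147 and 129 FPM in LIDPAD. It was not called (0.40, adjusted p = 0.0725), although it was with equal library totals. Aldh3a2, a fatty aldehyde dehydrogenase counted here among pericentral genes, was 118 and 135 FPM in control and 595 and 645 FPM in LIDPAD (log2 change 2.30, SE 0.12, adjusted p = 1.36e-05).

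Bile acid genes were called in both directions. Of 18 tested members 3 rose and 6 fell. The median was -0.20, and 0.00 with equal library totals. The 3 that rose are efflux pumps: Abcc3 was 89.6 and 124 FPM in control and 309 and 298 FPM in LIDPAD (log2 change 1.52, SE 0.15, adjusted p = 0.000471), Abcb4, which moves phospholipid into bile, rose (1.26, adjusted p = 0.000174), and so did Abcc4 (1.03, adjusted p = 0.00620), whose call was lost without LIDPAD library 2 (adjusted p = 0.0545). Among those that fell was Slc10a1, the NTCP transporter that takes bile acids up from blood, at 452 and 428 FPM in control and 184 and 168 FPM in LIDPAD (log2 change -1.32, SE 0.11, adjusted p = 0.000174). Cyp7a1, whose enzyme starts and limits bile acid synthesis, was 58.0 and 111 FPM in control and 91.1 and 116 FPM in LIDPAD, with overlapping libraries (log2 change 0.36, SE 0.26, adjusted p = 0.409).

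Genes of glucose production and insulin response fell in 6 of 18 tested members and rose in 1 (median -0.24). Of all tested genes 8.99% rose and 6.25% fell. With equal library totals 5 members fell and 2 rose, and the median was -0.04. The glycogen-targeting subunits of protein phosphatase fell, Ppp1r3c from 82.0 and 102 FPM in control to 25.8 and 22.7 FPM in LIDPAD (log2 change -1.89, SE 0.13, adjusted p = 6.94e-05) and Ppp1r3b by less (-1.08, adjusted p = 0.000614). G6pc, glucose-6-phosphatase, was 465 and 464 FPM in control and 214 and 139 FPM in LIDPAD (log2 change -1.43, SE 0.18, adjusted p = 0.00144). Irs2, an insulin receptor substrate, fell (-1.11, adjusted p = 0.00110). Pck1, the other key enzyme of glucose production, was 656 and 478 FPM in control and 536 and 679 FPM in LIDPAD and was not called (0.11, adjusted p = 0.750). The rise of Pcx, pyruvate carboxylase (0.42, adjusted p = 0.0349), was lost without LIDPAD library 1 (adjusted p = 0.317) and without LIDPAD library 2 (adjusted p = 0.404).

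Of 28 tested cytochromes P450 and their reductase, 12 rose and 1 fell (median 0.38), with 3 falls without control library 2. Cyp3a11, the main mouse form of the human drug-metabolising CYP3A4, had a log2 change of 1.83 (SE 0.18, adjusted p = 0.000445). Cyp2a5, a coumarin hydroxylase, was 86.8 and 65.2 FPM in control and 305 and 335 FPM in LIDPAD (log2 change 2.08, SE 0.14, adjusted p = 6.37e-05). Cyp2a4 (2.06, adjusted p = 0.000228) and Cyp2a22 (1.52, adjusted p = 0.000306) rose as well, as did the female-patterned Cyp3a44 (1.82, adjusted p = 0.000697) and Cyp3a41a (1.52, adjusted p = 0.00215). Cyp2b9, also female-patterned, was 0.354 and 3.55 FPM in control and 25.3 and 10.0 FPM in LIDPAD, with wide spread in both groups (log2 change 3.15, SE 0.64, adjusted p = 0.0126). DESeq2 did not call Cyp2b9 (adjusted p = 0.169). The Cyp2a, Cyp2b and Cyp3a genes have near-identical copies, so reads may be split among them. Cyp2e1, Cyp1a2 and Cyp2c29, among the most used hepatic forms, were not called, with Cyp2e1 at 3096 and 3109.5 FPM in control and 3582 and 3584 FPM in LIDPAD. The fall of Cyp2u1 (-0.68, adjusted p = 0.00885) was lost without LIDPAD library 2 (adjusted p = 0.0730).

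Glutathione enzymes and targets of NRF2, the factor that answers electrophiles, rose in 14 of 24 tested members and fell in 1 (median 0.81). Gsta1, a glutathione transferase, was 1.99 and 1.00 FPM in control and 34.4 and 32.3 FPM in LIDPAD (log2 change 4.13, SE 0.23, adjusted p = 1.67e-05). It is a near copy of Gsta2 (2.52, adjusted p = 9.25e-05), and reads may be shared. Gstm3, another transferase, was 12.2 and 14.8 FPM in control and 74.7 and 90.2 FPM in LIDPAD (log2 change 2.57, SE 0.14, adjusted p = 1.67e-05). Srxn1, sulfiredoxin, a defining NRF2 target, was 20.4 and 17.4 FPM in control and 64.3 and 63.1 FPM in LIDPAD (log2 change 1.73, SE 0.12, adjusted p = 5.98e-05), and Nqo1, another, rose from low levels (1.5, adjusted p = 0.000971). Nfe2l2, which encodes NRF2, was 40.3 and 51.1 FPM in control and 56.9 and 64.0 FPM in LIDPAD and was not called (0.41, adjusted p = 0.0832). The fall of Gstp1 (-0.58, adjusted p = 0.0291) was lost without LIDPAD library 1 (adjusted p = 0.214) and without LIDPAD library 2 (adjusted p = 0.214).

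ATF4 acts in amino acid shortage and endoplasmic reticulum stress. Of 17 tested genes of this stress response, Atf4 itself among them, 2 rose and 1 fell (median 0.42). Of all tested genes 8.99% rose and 6.25% fell. The rises numbered 0 without LIDPAD library 2, 6 without control library 1 and 5 without control library 2. Atf4 fell (-0.66, adjusted p = 0.0139), a call lost without LIDPAD library 1 (adjusted p = 0.0948). Gdf15, a stress hormone, rose (1.28, adjusted p = 0.0117), a call lost without LIDPAD library 2 (adjusted p = 0.0722). Atf3 was 1.82 and 1.29 FPM in control and 3.62 and 13.2 FPM in LIDPAD (1.88, adjusted p = 0.0260), so that LIDPAD library 2 made most of its rise. Without LIDPAD library 2 the log2 change of Atf3 was 1.02 and the call was lost. With all 4 libraries DESeq2 did not call Atf3 (adjusted p = 0.0648). Of 18 tested endoplasmic reticulum chaperones 0 were called by limma (median 0.10), with 4 at an unadjusted p under 0.05, 0 calls by edgeR and 2 by DESeq2. In this list 3 rose without LIDPAD library 1, 2 with either control library left out and 3 with equal library totals. Herpud1, which helps clear misfolded proteins, was 218 and 165 FPM in control and 233 and 333 FPM in LIDPAD (0.55, adjusted p = 0.0859), and Xbp1, a factor of the unfolded protein response, was 146 and 127 FPM in control and 118 and 105 FPM in LIDPAD (-0.29, adjusted p = 0.149). Creld2, a secreted chaperone, was 21.7 and 30.0 FPM in control and 33.5 and 44.8 FPM in LIDPAD (0.59, adjusted p = 0.0649).

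Of 22 tested acute phase transcripts 10 fell and 2 rose (median -0.38), where 8.99% of all genes rose and 6.25% fell. The median ran from -1.05 to -0.11 over the alternative fits, and it was -0.18 with equal library totals. The control libraries were apart in the list's sum, at 27293 and 21519 FPM, against 13447.5 and 13263.5 FPM in LIDPAD. There were 6 falls without LIDPAD library 2, 19 falls without control library 2 and 5 rises without control library 1. Saa2, a serum amyloid, was 377 and 379 FPM in control and 49.1 and 59.6 FPM in LIDPAD (log2 change -2.79, SE 0.12, adjusted p = 6.03e-06). Its near copy Saa1 fell too (-1.98, adjusted p = 0.00123), and the 2 genes may share reads. Hamp, hepcidin, the hormone that limits iron uptake, was 177 and 219.8 FPM in control and 59.1 and 37.5 FPM in LIDPAD (log2 change -2.05, SE 0.20, adjusted p = 0.000416). The fibrinogen chains fell together. Fga went from 5953 and 4781 FPM in control to 2176 and 1911 FPM in LIDPAD (log2 change -1.39, SE 0.19, adjusted p = 0.00215) and Fgb from 4586 and 4116 FPM to 1732 and 1604 FPM (-1.38, adjusted p = 0.00115). The call of Fga was lost without LIDPAD library 2 (adjusted p = 0.0814) and that of Fgb without LIDPAD library 2 (adjusted p = 0.0508). Control library 1 stood above control library 2 in Lcn2, lipocalin, (136 and 30.7 FPM) and Saa3 (25.2 and 2.38 FPM), and neither was called, with 48.7 and 76.1 FPM and 4.90 and 9.03 FPM in LIDPAD.

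Orm3 and Il1rn went against the other acute phase genes. Orm3, an orosomucoid, was 0.557 and 0.536 FPM in control and 16.6 and 15.6 FPM in LIDPAD (log2 change 3.99, SE 0.17, adjusted p = 6.03e-06). Its relatives Orm1 (705 and 381 FPM in control, 359 and 373 FPM in LIDPAD) and Orm2 (76.5 and 23.7 FPM in control, 37.2 and 42.0 FPM in LIDPAD) were not called. Il1rn, a natural antagonist of an inflammatory interleukin receptor, rose from 1.69 and 0.950 FPM in control to 5.86 and 7.24 FPM in LIDPAD (log2 change 1.98, SE 0.24, adjusted p = 0.00109).

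Complement and coagulation genes fell in 9 of 34 tested members and rose in 2 (median -0.35), with 4 falls without LIDPAD library 1, 3 without LIDPAD library 2, 15 without control library 1 and 21 without control library 2. Of all tested genes 8.99% rose and 6.25% fell. With equal library totals 7 members of this list fell and the median was -0.15. C8b, of the membrane attack complex, was 294 and 209.6 FPM in control and 74.3 and 86.6 FPM in LIDPAD (log2 change -1.62, SE 0.16, adjusted p = 0.000471), and the coagulation factor gene F7 fell by less (-0.92, adjusted p = 0.000933). Cfd and Vwf were the 2 that rose, and the call of Vwf, the von Willebrand factor of endothelium (0.79, adjusted p = 0.0114), was lost without LIDPAD library 1 (adjusted p = 0.0623). Iron and heme genes were called 4 times in each direction among 16 tested (median 0.08), with 1 higher and 2 lower without LIDPAD library 2, 6 higher and 7 lower without control library 2, and 2 lower with equal library totals. Beside Hamp, its copy Hamp2 fell (-2.37, adjusted p = 0.00428), and Alas1, the rate-limiting enzyme of heme synthesis, was 133 and 128 FPM in control and 305 and 255 FPM in LIDPAD (log2 change 1.09, SE 0.12, adjusted p = 0.000750).

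Secreted liver regulators, or hepatokines, fell in 11 of 22 tested members and rose in 4 (median -0.46). Falls numbered 6 with either LIDPAD library left out and 6 with equal library totals. Against the list, Tsku, tsukushi, a proteoglycan released by the liver, rose: it was 11.8 and 12.2 FPM in control and 110.1 and 131 FPM in LIDPAD (log2 change 3.27, SE 0.12, adjusted p = 3.91e-06). Enho, which encodes the peptide adropin, fell: it was 8.44 and 7.17 FPM in control and 0.640 and 0.702 FPM in LIDPAD (log2 change -2.82, SE 0.19, adjusted p = 5.36e-05). Angptl8, an inhibitor of lipoprotein lipase made after feeding, fell (-1.46, adjusted p = 0.000412), while Angptl4, an inhibitor made in fasting, rose (1.09, adjusted p = 0.0121). Inhbe, an inhibin beta chain, rose too (1.15, adjusted p = 0.000536). Fgf21, the fasting hormone, was 5.21 and 5.64 FPM in control and 6.62 and 6.87 FPM in LIDPAD and was not called (0.29, adjusted p = 0.249).

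Genes that define hepatocytes were lower in part. Of 21 tested identity genes 5 fell and 1 rose (median -0.38), with 1 fall with either LIDPAD library left out, 8 falls without control library 1 and 12 without control library 2. With equal library totals 2 fell and 2 rose, and the median was -0.19. The summed level of the list was 88587 and 80304.5 FPM in control and 55273 and 50205 FPM in LIDPAD, most of it Alb, which was not called (-0.75, adjusted p = 0.268). The pioneer factor genes Foxa3 (-0.57, adjusted p = 0.00925) and Foxa2 (-0.56, adjusted p = 0.0230) fell. Their calls were lost without LIDPAD library 1 (adjusted p = 0.101) and without LIDPAD library 2 (adjusted p = 0.0765) for Foxa3 and without LIDPAD library 1 (adjusted p = 0.0736) and without LIDPAD library 2 (adjusted p = 0.227) for Foxa2. Nr1i3, the xenobiotic receptor CAR, rose (0.73, adjusted p = 0.00476). Hnf4a, a master regulator of hepatocytes, was 298 and 346 FPM in control and 299.7 and 288 FPM in LIDPAD (-0.13, adjusted p = 0.542).

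Of 30 tested genes of the urea cycle and amino acid breakdown 11 fell and 2 rose. The median was -0.24, and -0.04 with equal library totals. Falls numbered 5 without LIDPAD library 1, 4 without LIDPAD library 2 and 8 with equal library totals, and rises 0 with either LIDPAD library left out, 4 with either control library left out and 5 with equal library totals. Hal, which breaks down histidine, was 161 and 172 FPM in control and 57.2 and 51.7 FPM in LIDPAD (log2 change -1.61, SE 0.11, adjusted p = 5.44e-05). Got1, an aspartate aminotransferase, fell (-1.37, adjusted p = 0.000425), as did Agxt, which removes glyoxylate (-1.25, adjusted p = 0.000142). The rises of Gpt2, an alanine aminotransferase (0.59, adjusted p = 0.00885), and Oat, an ornithine aminotransferase (0.67, adjusted p = 0.0383), were lost with either LIDPAD library left out, Gpt2 without LIDPAD library 1 (adjusted p = 0.0873) and without LIDPAD library 2 (adjusted p = 0.191) and Oat without LIDPAD library 1 (adjusted p = 0.161) and without LIDPAD library 2 (adjusted p = 0.157). Along the lobule, periportal genes fell in 6 of 15 tested members and rose in 2 (median -0.34), and pericentral genes rose in 5 of 16 and fell in 0 (median 0.14). Periportal falls numbered 2 without LIDPAD library 1 and 3 without LIDPAD library 2, and pericentral rises 1 with either left out. Gls2, a liver glutaminase, fell (-0.95, adjusted p = 0.00111). Hsd17b13, a droplet-bound dehydrogenase, rose against the periportal list, from 132 and 157 FPM in control to 245 and 261 FPM in LIDPAD (log2 change 0.81, SE 0.12, adjusted p = 0.00284), and Aldh1b1, an aldehyde dehydrogenase of mitochondria, rose (0.64, adjusted p = 0.00990), a call lost without LIDPAD library 1 (adjusted p = 0.0854). The pericentral Cyp2c37 rose (0.56, adjusted p = 0.0135), a call lost without LIDPAD library 1 (adjusted p = 0.131) and without LIDPAD library 2 (adjusted p = 0.107).

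Methionine and one-carbon enzymes fell in 6 of 19 tested members and rose in 1 (median -0.31), with 3 falls without LIDPAD library 1, 1 without LIDPAD library 2, and 10 falls and 3 rises without control library 2. With equal library totals 4 fell and 2 rose, and the median was -0.11. Gnmt, which uses up methyl groups as sarcosine, was 443 and 509 FPM in control and 226 and 193 FPM in LIDPAD (log2 change -1.18, SE 0.13, adjusted p = 0.000743). Aldh1l1, a folate enzyme, fell (-0.83, adjusted p = 0.00238), a call lost without LIDPAD library 2 (adjusted p = 0.0795). Cbs, of cysteine synthesis, fell (-0.78, adjusted p = 0.00288), a call lost without LIDPAD library 2 (adjusted p = 0.0596). Mat2a, the methionine adenosyltransferase of non-hepatic cells, rose (0.53, adjusted p = 0.0171), a call lost without LIDPAD library 1 (adjusted p = 0.0554) and without LIDPAD library 2 (adjusted p = 0.243).

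Male-patterned and growth hormone-dependent genes were lower. Of 30 tested members 12 fell and 4 rose (median -0.53). Hsd3b5, a steroid dehydrogenase of male mouse liver, was 236 and 183 FPM in control and 42.5 and 39.5 FPM in LIDPAD (log2 change -2.33, SE 0.14, adjusted p = 2.33e-05). Cish, a feedback inhibitor induced by growth hormone, was 8.57 and 10.3 FPM in control and 1.82 and 1.25 FPM in LIDPAD (log2 change -2.30, SE 0.20, adjusted p = 0.000236). Socs2 (-1.59, adjusted p = 0.000781), another feedback inhibitor, and Prlr, the prolactin receptor (-1.42, adjusted p = 0.000425), fell as well. The 4 that rose are the P450 genes Cyp2a4, Cyp2b9, Cyp3a41a and Cyp3a44 named above, which are female-patterned. Retinoid genes rose in 4 of 16 tested members and fell in 3, with 2 rises without LIDPAD library 2. The median was -0.08, and 0.11 with equal library totals. Rdh11, a retinol dehydrogenase and SREBP target, was 131 and 95.5 FPM in control and 22.6 and 15.5 FPM in LIDPAD (log2 change -2.55, SE 0.20, adjusted p = 0.000113). Rdh16f2 fell (-1.75, adjusted p = 7.6e-05), and Aldh1a1 and Aldh1a7, which act on retinal and other aldehydes, rose (0.97, adjusted p = 0.00141) and (0.83, adjusted p = 0.00138). The fall of Stra6l, a retinol transporter (-0.50, adjusted p = 0.0152), was lost without LIDPAD library 1 (adjusted p = 0.0891) and without LIDPAD library 2 (adjusted p = 0.293).

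Clock genes were called in both directions, 6 of 19 tested higher and 5 lower (median 0.06). Falls numbered 3 with either LIDPAD library left out and 2 with equal library totals, and rises 4 without LIDPAD library 2. Dbp, a clock output factor, was 7.12 and 4.06 FPM in control and 15.5 and 15.4 FPM in LIDPAD (log2 change 1.43, SE 0.22, adjusted p = 0.00373). Per1, a repressor of the clock loop, was 7.95 and 5.33 FPM in control and 13.3 and 16.9 FPM in LIDPAD (log2 change 1.14, SE 0.20, adjusted p = 0.00672). Arntl, which encodes the activator BMAL1, was 13.9 and 16.8 FPM in control and 3.96 and 4.27 FPM in LIDPAD (log2 change -1.77, SE 0.15, adjusted p = 0.000228). So Dbp, Per1, Per2, Per3, Tef and Ciart were higher in LIDPAD. Arntl, Npas2 (-1.59, adjusted p = 0.0205), Cry1 (-1.15, adjusted p = 0.00898), Nfil3 (-0.82, adjusted p = 0.0203) and Rora (-0.55, adjusted p = 0.0343) were lower. The call of Nfil3 was lost without LIDPAD library 1 (adjusted p = 0.0608) and without LIDPAD library 2 (adjusted p = 0.0505) and that of Rora without LIDPAD library 1 (adjusted p = 0.181) and without LIDPAD library 2 (adjusted p = 0.129). The control libraries differed from each other in Npas2, at 2.22 and 6.15 FPM. The hour at which livers were taken is not in the labels, and its part in these values was not tested.

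Promoter windows of 2 clock genes that rose are shown, with the E-box CACGTG in capitals, the motif bound by BMAL1 and its partner CLOCK. Per1 is on the plus strand at chr11:69098699-69098998 (the first of its 2 windows) and Ciart on the minus strand at chr3:95882179-95882478, both from RefSeq on GRCm38.p6.

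Per1: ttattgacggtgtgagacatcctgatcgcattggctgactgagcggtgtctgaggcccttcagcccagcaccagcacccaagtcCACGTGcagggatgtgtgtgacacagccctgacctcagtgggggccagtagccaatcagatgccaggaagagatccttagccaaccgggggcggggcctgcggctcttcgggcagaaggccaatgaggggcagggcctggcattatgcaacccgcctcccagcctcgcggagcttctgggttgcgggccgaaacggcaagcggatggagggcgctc
Ciart: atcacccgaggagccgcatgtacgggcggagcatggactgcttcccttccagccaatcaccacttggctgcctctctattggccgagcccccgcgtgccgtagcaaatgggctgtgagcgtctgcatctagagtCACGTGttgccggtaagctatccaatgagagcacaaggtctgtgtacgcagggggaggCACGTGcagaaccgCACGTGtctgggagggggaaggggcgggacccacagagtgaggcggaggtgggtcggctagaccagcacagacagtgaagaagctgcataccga

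The Per1 window shown held the E-box once, at 166 to 161 bases before the start, its other window held 0, and the Ciart window held it 3 times. Of the clock genes that rose, 5 had 7 windows in the table, and 4 windows (57.1%) held an E-box. Of those that fell, 5 had 6 windows, and 1 (16.7%) held it, against 2349 of the 32851 windows of all genes (7.15%). It also stood in 3 of the 18 windows of the cholesterol synthesis genes (16.7%). The D-box TTATGTAA, bound by factors such as DBP, stood in 1 window of the genes that rose (14.3%), that of Per3, and in 0.938% of all windows.

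Collagen genes rose in 14 of 19 tested members and fell in 1 (median 0.84). Col3a1 (chr1:45311538-45349706), of fibrillar collagen, was 27.4 and 32.7 FPM in control and 149.7 and 159 FPM in LIDPAD (log2 change 2.35, SE 0.12, adjusted p = 1.36e-05). Col1a1, the main collagen of scar, was 3.77 and 5.84 FPM in control and 30.4 and 39.5 FPM in LIDPAD (log2 change 2.76, SE 0.21, adjusted p = 9.3e-05). Col1a2, its partner chain, was 9.37 and 9.65 FPM in control and 44.1 and 49.4 FPM in LIDPAD (log2 change 2.24, SE 0.12, adjusted p = 1.67e-05). All 3 fibrillar genes stood several-fold above control in both LIDPAD libraries. The basement membrane genes Col4a1 (0.84, adjusted p = 0.00155) and Col4a2 (0.73, adjusted p = 0.00329) rose by less. Col18a1, which hepatocytes also make, fell (-0.60, adjusted p = 0.0127), a call lost without LIDPAD library 1 (adjusted p = 0.185) and without LIDPAD library 2 (adjusted p = 0.245).

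Genes that crosslink and organise the matrix rose in 19 of 32 tested members and fell in 3 (median 0.72), and 11 rose without LIDPAD library 2. Serpinh1, the collagen chaperone, was 8.84 and 8.43 FPM in control and 19.6 and 21.6 FPM in LIDPAD (log2 change 1.21, SE 0.13, adjusted p = 0.000672). Postn, periostin (1.52, adjusted p = 0.000412), and Sparc, a collagen-binding protein (1.07, adjusted p = 0.000678), rose too. The members that fell were Fn1 and Vtn, fibronectin and vitronectin, which hepatocytes secrete into plasma, and Loxl4. Fn1 was 1588 and 1634 FPM in control and 834 and 890.3 FPM in LIDPAD (-0.90, adjusted p = 0.00296), a call lost without LIDPAD library 1 (adjusted p = 0.0884) and without LIDPAD library 2 (adjusted p = 0.0731). Vtn fell (-0.76, adjusted p = 0.00992), a call lost without LIDPAD library 1 (adjusted p = 0.113) and without LIDPAD library 2 (adjusted p = 0.215). Loxl4, a lysyl oxidase, fell (-1.01, adjusted p = 0.0110).

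Of 23 listed matrix proteases and their inhibitors 16 were tested, of which 11 rose and 1 fell (median 1.16). Mmp12 was 0.405 and 0.316 FPM in control and 13.9 and 20.8 FPM in LIDPAD (log2 change 4.35, SE 0.22, adjusted p = 1.36e-05). Mmp13, a collagenase, was 0.153 and 0 FPM in control and 1.63 and 2.68 FPM in LIDPAD (log2 change 2.19, SE 0.28, adjusted p = 0.00155). DESeq2 did not call Mmp13 (adjusted p = 0.0624). Timp1, the inhibitor of these proteases, was 0.355 and 0.0964 FPM in control and 1.5 and 1.51 FPM in LIDPAD (log2 change 1.49, SE 0.26, adjusted p = 0.00635). The 3 were under 1 FPM in both control libraries, so they passed the filter only through LIDPAD and could only lie higher there. Plau, urokinase, rose as well (1.64, adjusted p = 0.00139), and it too was under 1 FPM in both control libraries. The fall of Mmp14 (-0.49, adjusted p = 0.0405) was lost without control library 2 (adjusted p = 0.0713) and without LIDPAD library 1 (adjusted p = 0.205) and without LIDPAD library 2 (adjusted p = 0.200).

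Markers of stellate cells and myofibroblasts were called less uniformly, 6 of 21 tested higher and 1 lower (median 0.34), with 2 higher without LIDPAD library 2 and 10 higher with equal library totals. Their summed level was 305 and 299 FPM in control and 360.5 and 378 FPM in LIDPAD. Tpm2, a tropomyosin, was 1.97 and 2.33 FPM in control and 10.8 and 9.46 FPM in LIDPAD (log2 change 2.00, SE 0.17, adjusted p = 0.000194), and Vim, vimentin, rose (1.00, adjusted p = 0.00427). Hhip, an inhibitor of hedgehog signals in quiescent stellate cells, fell (-1.31, adjusted p = 0.00172). Reln, reelin, another gene of these cells, was 119 and 121 FPM in control and 118 and 126 FPM in LIDPAD and was not called. The myofibroblast genes Tagln and Cnn1 were at or below 0.270 FPM in all 4 libraries and were not tested.

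**Figure D4:**
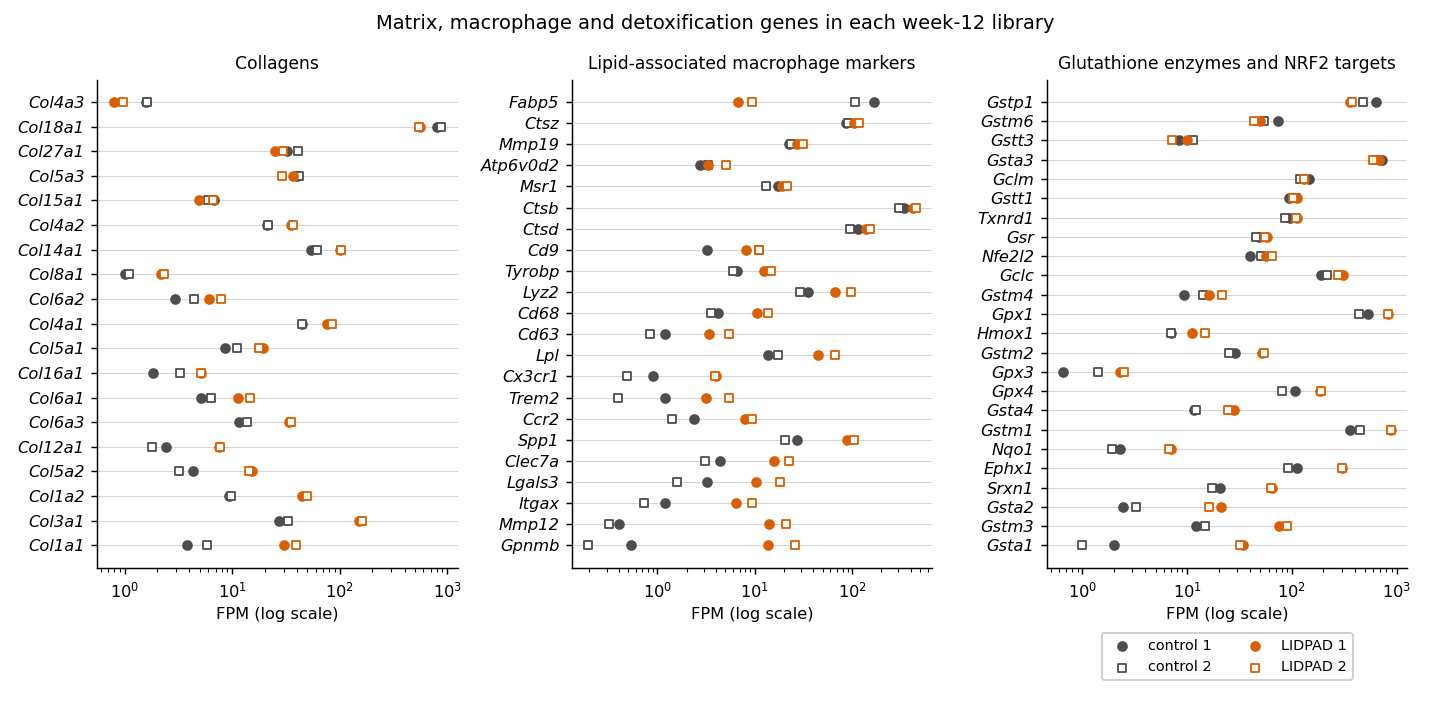
Collagens, lipid-associated macrophage markers and glutathione enzymes with NRF2 targets in each week-12 library. The x axes give FPM on a log scale, grey marks are control and orange marks LIDPAD libraries, and filled circles and open squares are libraries 1 and 2. Genes are ordered by log2 change from the lowest at the top. Gpnmb, Trem2 and Lgals3 lie higher in LIDPAD library 2 than in library 1, while Col1a2, Col3a1 and Gsta1 lie close together.

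Markers of lipid-associated macrophages, cells that gather around dying fat-laden cells, rose in 16 of 22 tested members and fell in 1 (median 1.61), where 8.99% of all genes rose. Gpnmb (chr6:49036546-49070929), a surface glycoprotein, was 0.530 and 0.195 FPM in control and 13.8 and 26.2 FPM in LIDPAD (log2 change 4.53, SE 0.31, adjusted p = 5.84e-05). Trem2, the lipid-sensing receptor that marks these cells, was 1.19 and 0.391 FPM in control and 3.12 and 5.46 FPM in LIDPAD (log2 change 1.92, SE 0.34, adjusted p = 0.00686). Itgax, which encodes CD11c, was 1.19 and 0.730 FPM in control and 6.40 and 9.30 FPM in LIDPAD (log2 change 2.51, SE 0.24, adjusted p = 0.000392). In each of the 3 the second LIDPAD library was the higher. The pan-macrophage gene Cd68 (1.52, adjusted p = 0.000991) and the lectin genes Lgals3 (2.36, adjusted p = 0.00172) and Clec7a (2.21, adjusted p = 0.000369) rose with them. The 1 member that fell was Fabp5, at 169.6 and 106 FPM in control, and the list's sum of 862 and 734 FPM in control and 1038 and 1222 FPM in LIDPAD includes it. Of its members, Mmp12 is also listed among the proteases, Lpl and Fabp5 among uptake genes, Ccr2 and Cx3cr1 among chemokine receptors and Spp1, osteopontin, among ductular markers.

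Resident Kupffer cell markers were called 5 times higher and 1 time lower of 12 tested (median 0.40), and 1 rose without LIDPAD library 2. C1qb, a complement chain made by macrophages, was 19.1 and 16.4 FPM in control and 29.9 and 40.7 FPM in LIDPAD (log2 change 0.96, SE 0.16, adjusted p = 0.00520). Cd5l, a scavenger protein of Kupffer cells, rose (0.94, adjusted p = 0.00806), a call lost without LIDPAD library 2 (adjusted p = 0.0532). Adgre1, which encodes F4/80, rose (0.66, adjusted p = 0.0178), a call lost without LIDPAD library 2 (adjusted p = 0.195). The genes most tied to resident Kupffer cells were not called: Clec4f was 61.4 and 50.2 FPM in control and 64.2 and 66.3 FPM in LIDPAD, and Timd4 was 4.73 and 4.74 FPM in control and 3.64 and 3.43 FPM in LIDPAD. Cd163, a hemoglobin receptor, fell (-0.48, adjusted p = 0.0414), a call lost without control library 2 (adjusted p = 0.0641) and without LIDPAD library 1 (adjusted p = 0.263) and without LIDPAD library 2 (adjusted p = 0.187).

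Chemokines and their receptors rose in 10 of 18 tested members and fell in 2 (median 0.74), and 4 rose without LIDPAD library 2. Ccl2, which draws monocytes, was 0.380 and 0.510 FPM in control and 3.08 and 3.63 FPM in LIDPAD (log2 change 2.03, SE 0.22, adjusted p = 0.000648). Its receptor gene Ccr2 was 2.40 and 1.41 FPM in control and 7.98 and 9.33 FPM in LIDPAD (log2 change 1.95, SE 0.22, adjusted p = 0.000924). Cx3cr1, a receptor of monocytes and macrophages, rose (1.91, adjusted p = 0.00114). Cxcl13, which draws B cells, fell from 1.57 and 1.75 FPM in control to 0.247 and 0.189 FPM in LIDPAD (log2 change -1.59, SE 0.23, adjusted p = 0.00266), and the fall of Cxcl12 (-0.51, adjusted p = 0.0233) was lost without LIDPAD library 1 (adjusted p = 0.182) and without LIDPAD library 2 (adjusted p = 0.157). Of 21 tested inflammatory genes 8 rose and 0 fell (median 0.48). They include Tnfaip3, a brake on NF-kappa B (1.80, adjusted p = 0.00172), and the Toll-like receptor genes Tlr7 (1.54, adjusted p = 0.00155) and Tlr2 (1.57, adjusted p = 0.00334). The cytokine genes Tnf and Il6 were at or below 0.621 FPM in all 4 libraries and were not tested, and Il1b was 4.73 and 4.11 FPM in control and 2.44 and 3.84 FPM in LIDPAD (-0.46, adjusted p = 0.210).

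Genes of MHC class II presentation rose in 8 of 9 tested members (median 1.34), a count that was 8 with each library left out in turn and 1 with all 14 groups in the fit. H2-Ab1, an antigen-presenting beta chain, was 7.79 and 8.97 FPM in control and 23.4 and 30.8 FPM in LIDPAD (log2 change 1.62, SE 0.16, adjusted p = 0.000425). H2-Aa, its alpha chain, was 18.8 and 13.3 FPM in control and 47.4 and 54.5 FPM in LIDPAD (log2 change 1.65, SE 0.17, adjusted p = 0.000471), and Cd74, the invariant chain, was 37.2 and 30.4 FPM in control and 78.0 and 94.4 FPM in LIDPAD (log2 change 1.34, SE 0.14, adjusted p = 0.000576). Class I genes and the immunoproteasome were called once in each direction of 16 tested (median 0.10), and 4 rose with equal library totals and 4 without control library 1. Of all tested genes 8.99% rose and 6.25% fell, beside which the class I and the interferon-response counts stand. Ubd, a ubiquitin-like modifier, was 0.303 and 0.0487 FPM in control and 5.26 and 9.30 FPM in LIDPAD (log2 change 3.50, SE 0.30, adjusted p = 0.000203). H2-Q7 fell (-0.59, adjusted p = 0.00762), a call lost without LIDPAD library 1 (adjusted p = 0.0557) and without LIDPAD library 2 (adjusted p = 0.114), and H2-T23 was 136 and 113 FPM in control and 95.3 and 97.3 FPM in LIDPAD and was not called. Interferon-response genes rose in 4 of 28 tested members and fell in 1 (median 0.13), and 0 were called without LIDPAD library 2, while 7 rose without control library 1 and 4 fell without control library 2. Gbp2, a guanylate-binding protein (0.97, adjusted p = 0.00940), lost its call without LIDPAD library 2 (adjusted p = 0.0541). Gbp6 (0.77, adjusted p = 0.0211) lost it without LIDPAD library 2 (adjusted p = 0.139), and Ifi27l2a (0.98, adjusted p = 0.0239) lost it without LIDPAD library 2 (adjusted p = 0.211). Iigp1 fell (-0.50, adjusted p = 0.0304), a call lost without LIDPAD library 1 (adjusted p = 0.260) and without LIDPAD library 2 (adjusted p = 0.196).

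Lymphocyte and granulocyte markers were low. Of 22 listed T and NK cell markers 2 were tested, and their summed level was 6.77 and 6.90 FPM in control and 31.4 and 33.7 FPM in LIDPAD. Themis made nearly all of that difference. The T cell receptor genes Cd3d, Cd3e and Cd3g were at or below 0.324 FPM in all 4 libraries while Themis was 24.9 and 25.9 FPM in LIDPAD, and Cd4 was 1.09 and 1.46 FPM in control and 0.738 and 0.676 FPM in LIDPAD (-0.55, adjusted p = 0.156). B and plasma cell markers summed to 15.8 and 18.7 FPM in control and 13.1 and 12.5 FPM in LIDPAD, with 1 of 5 tested lower. That gene was Igha, the IgA heavy chain, at 1.47 and 1.19 FPM in control and 0.297 and 0.353 FPM in LIDPAD (-1.15, adjusted p = 0.0126), a call lost without LIDPAD library 1 (adjusted p = 0.0572) and without LIDPAD library 2 (adjusted p = 0.0529). Ighm (-0.36, adjusted p = 0.203) and Cd22 (0.45, adjusted p = 0.200) were not called. Neutrophil markers summed to 6.09 and 3.77 FPM in control and 4.67 and 6.60 FPM in LIDPAD, Ly6g was at 0 in all 4, and the 1 tested member, Csf3r, was not called (0.38, adjusted p = 0.286).

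Several of the genes with large rises are also expressed by fat cells. Of 7 tested adipocyte-expressed genes 5 rose and 1 fell (median 1.72), counts that were the same with each library left out. Pparg, the regulator of fat cell genes, was 4.60 and 4.23 FPM in control and 19.8 and 12.4 FPM in LIDPAD (log2 change 1.72, SE 0.21, adjusted p = 0.00123). Beside it rose Cfd, Cidec, Cidea and Fabp4, described above. Slc2a4, the insulin-responsive glucose transporter of fat and muscle, fell (-1.13, adjusted p = 0.0108). The defining fat cell genes Adipoq, Lep and Plin1 were at or below 0.147 FPM in all 4 libraries. The list's sum was 1881 and 1776 FPM in control and 2652 and 2048 FPM in LIDPAD, nearly all of it Car3, which was not called (0.25, adjusted p = 0.397). Of 10 pancreatic acinar markers only Cela1 was tested, and it fell from 11.3 and 9.65 FPM in control to 4.11 and 3.51 FPM in LIDPAD (log2 change -1.35, SE 0.16, adjusted p = 0.00115). The other 9 were at or below 0.149 FPM.

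Sinusoidal endothelial markers were near their control levels, with sums of 407 and 425 FPM in control and 389 and 413 FPM in LIDPAD. Of 16 tested, 3 rose and 1 fell, with 1 rise without LIDPAD library 2 and 5 with equal library totals. The median was -0.08, and 0.12 with equal library totals. Of all tested genes 8.99% rose and 6.25% fell. Plvap, of fenestrated endothelium (0.66, adjusted p = 0.00955), lost its call without LIDPAD library 2 (adjusted p = 0.121). Kdr, a VEGF receptor (-0.47, adjusted p = 0.0178), lost its call without LIDPAD library 1 (adjusted p = 0.141) and without LIDPAD library 2 (adjusted p = 0.214). Ductular markers, in contrast, rose in 6 of 9 tested members and fell in 0 (median 1.1), with sums of 297 and 220.1 FPM in control and 593 and 637 FPM in LIDPAD. Krt8, a keratin of hepatocytes and ducts, was 132 and 91.5 FPM in control and 289 and 306 FPM in LIDPAD (log2 change 1.43, SE 0.16, adjusted p = 0.000892). Spp1 was 27.4 and 20.6 FPM in control and 88.3 and 105 FPM in LIDPAD (log2 change 2.00, SE 0.15, adjusted p = 0.000112). Krt23 rose from 0.201 and 0.292 FPM in control to 2.46 and 2.19 FPM in LIDPAD (log2 change 1.92, SE 0.22, adjusted p = 0.000996). The duct-specific genes Krt7 and Krt19 were at or below 0.678 FPM in all 4 libraries and were not tested, and Sox9 was 4.12 and 3.99 FPM in control and 3.20 and 3.90 FPM in LIDPAD and was not called.

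Cell cycle genes rose in 11 of 21 tested members and fell in 1 (median 0.85), with 7 rises without LIDPAD library 1 and 3 without LIDPAD library 2. Mki67, the proliferation marker Ki-67, was 4.55 and 2.14 FPM in control and 10.6 and 13.1 FPM in LIDPAD (log2 change 1.75, SE 0.28, adjusted p = 0.00412). Ccnd1, cyclin D1, was 10.3 and 12.6 FPM in control and 25.6 and 29.5 FPM in LIDPAD (log2 change 1.24, SE 0.14, adjusted p = 0.000978). E2f8, a repressor of the cycle in polyploid hepatocytes, fell (-0.96, adjusted p = 0.00349). Of 7 tested oncofetal and liver tumour markers 5 rose and 0 fell (median 0.93), 3 with either LIDPAD library left out. The list holds 16 markers, and those under 1 FPM in both control libraries could be tested only if they were higher in LIDPAD. H19, an imprinted non-coding RNA of fetal liver, entered this way. It was 0.101 and 0.0487 FPM in control and 2.14 and 2.02 FPM in LIDPAD (log2 change 2.17, SE 0.23, adjusted p = 0.000648). Lgals1, galectin, was 6.47 and 7.39 FPM in control and 35.8 and 37.5 FPM in LIDPAD (log2 change 2.32, SE 0.13, adjusted p = 1.67e-05). Afp, the fetal albumin, was 3.79 and 3.84 FPM in control and 2.49 and 2.33 FPM in LIDPAD and was not called (-0.57, adjusted p = 0.0631).

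Annexins and S100 proteins, which bind calcium and membranes, rose in 9 of 14 tested members and fell in 0 (median 0.86), with 5 rises without LIDPAD library 2. Anxa2 was 7.28 and 7.95 FPM in control and 69.8 and 75.7 FPM in LIDPAD (log2 change 3.17, SE 0.12, adjusted p = 3.91e-06), Anxa5 was 44.2 and 38.3 FPM in control and 172 and 194 FPM in LIDPAD (log2 change 2.14, SE 0.12, adjusted p = 1.72e-05), and S100a11 rose too (2.42, adjusted p = 0.000606). Tubulins, actins and thymosins rose in 10 of 15 and fell in 1 (median 0.52), with 6 rises without LIDPAD library 1 and 4 without LIDPAD library 2. Tubb2a was 135 and 131 FPM in control and 391 and 350.1 FPM in LIDPAD (log2 change 1.47, SE 0.11, adjusted p = 9.3e-05). Tubb2b (1.48, adjusted p = 0.000135), a close copy, and Tubb6 (1.46, adjusted p = 0.00349) rose with it, and the fall of Tuba4a (-0.43, adjusted p = 0.0361) was lost without LIDPAD library 1 (adjusted p = 0.118) and without LIDPAD library 2 (adjusted p = 0.434). Lysosomal genes rose in 9 of 26 and fell in 1 (median 0.28), with 3 rises without LIDPAD library 2. Hexa, a hexosaminidase (0.97, adjusted p = 0.00102), Ctss, a cathepsin of antigen-presenting cells (1.21, adjusted p = 0.00328), and Lgmn, legumain (0.81, adjusted p = 0.00505), rose. The fall of the cathepsin gene Ctsl (-0.48, adjusted p = 0.0379) was lost without LIDPAD library 1 (adjusted p = 0.227) and without LIDPAD library 2 (adjusted p = 0.340).

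Respiratory chain genes gave 0 calls by limma among 28 tested, nuclear and mitochondrial, with 1 at an unadjusted p under 0.05, 0 calls by edgeR and 1 by DESeq2 (median -0.04, and 0.16 with equal library totals). The largest differences by p were in mt-Nd5 (-0.38, adjusted p = 0.132), mt-Nd4 (-0.29, adjusted p = 0.284) and Ndufa1 (0.18, adjusted p = 0.354). Erythroid markers summed to 485 and 482 FPM in control and 443 and 459 FPM in LIDPAD with 0 of 5 called by limma, 0 at an unadjusted p under 0.05, and 0 by edgeR or DESeq2, among them the near copies Hba-a1 (-0.15, adjusted p = 0.397) and Hba-a2 (-0.12, adjusted p = 0.547) and Hbb-bs (-0.13, adjusted p = 0.469). Of 4 tested Y-linked transcripts 0 were called by limma, 2 at an unadjusted p under 0.05, and 0 by edgeR or DESeq2, among them Ddx3y (-0.35, adjusted p = 0.0779), Kdm5d (-0.30, adjusted p = 0.127) and Uty (-0.19, adjusted p = 0.339).

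The diet effect at week 12 was set beside those of weeks 8 and 16, each taken against controls of the same week. At week 8, with 2 libraries per diet, 743 of 13271 genes (5.6%) were called, and at week 16, with 3 per diet, 3928 of 13914 (28.2%). Depth was 44846707 to 48791716 reads per library at week 8 and 18715458 to 28704645 at week 16. Week 16 also differed in the share of a library's reads that each of its 4 columns held, with 27.07 to 27.58% in the third column, against 25.08 to 25.22% at week 12 and 25.15 to 25.26% at week 8. A difference between weeks 12 and 16 cannot be told apart from that of sequencing. Of the 1226 genes that rose at week 12, 428 were also called higher at week 8 (34.9% of these and 83.8% of the 511 of week 8), and 1009 at week 16 (82.3% and 44.6% of the 2262 of week 16). Of the 852 that fell, 144 were called lower at week 8 (16.9%, and 62.1% of 232) and 614 at week 16 (72.1%, and 36.9% of 1666). Calls in the opposite direction numbered 2 against week 8 and 5 against week 16.

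**Figure D5:**
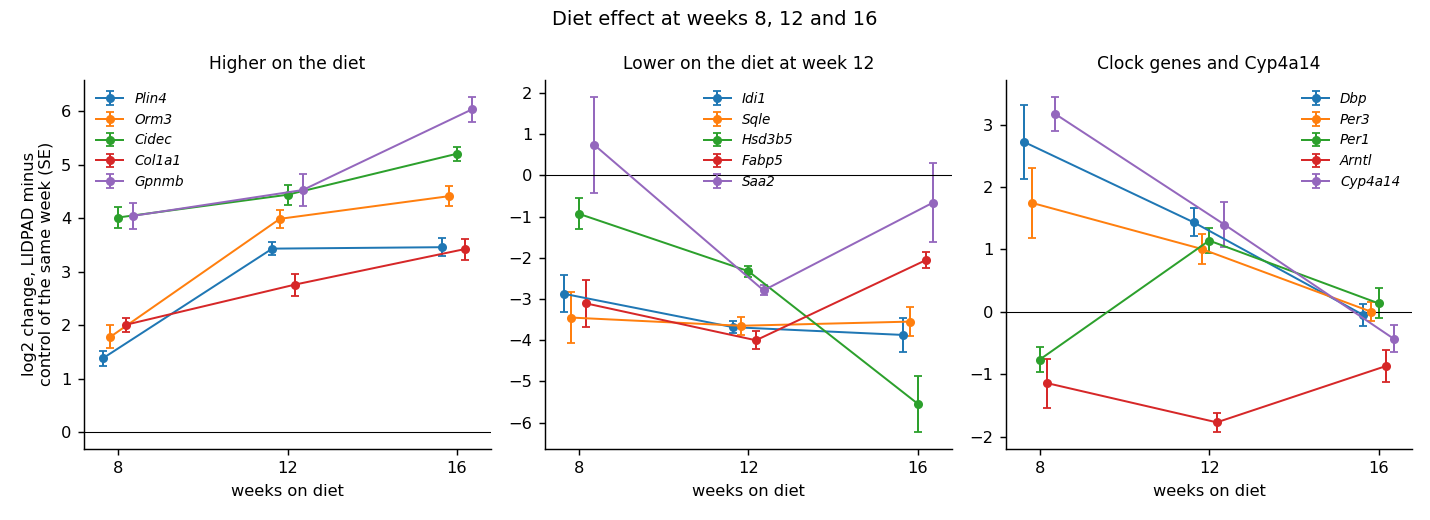
Diet effect at weeks 8, 12 and 16 for 15 genes. The x axes give weeks on diet and the y axes the log2 change, LIDPAD minus control of the same week, with bars of 1 SE. Each week holds its own libraries, 2 per diet at weeks 8 and 12 and 3 per diet at week 16. Orm3 and Plin4 lie higher at week 12 than at week 8, and Dbp, Per3 and Cyp4a14 lie near 0 at week 16.

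A test of the difference itself, in a joint limma model of the 3 weeks, called 2 of 14778 genes (0.0135%) between weeks 8 and 12, and 791 (5.35%) had an unadjusted p under 0.05. Orm3 had a log2 change of 1.78 (SE 0.21) at week 8 and 3.99 at week 12, a difference of 2.21 (SE 0.31, adjusted p = 0.0222). Plin4 had 1.38 (SE 0.14) at week 8 and 3.43 at week 12, a difference of 2.05 (SE 0.28, adjusted p = 0.0222). Without any single library of week 12 the fit called 0 genes (469 to 1141 at an unadjusted p under 0.05). Without week 8 control library 1 or LIDPAD library 1 it also called 0, and without week 8 control library 2 it called 5. Between weeks 12 and 16, 0 genes (0.0%) were called by limma, with 1128 (7.63%) at an unadjusted p under 0.05. It was 1 gene without week 12 control library 2 and 2 without week 16 LIDPAD library 2. At week 16 Orm3 stood at 4.41 and Plin4 at 3.46.

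Among genes not called between the weeks, Col1a1 stood at 2.01, 2.76 and 3.42 at weeks 8, 12 and 16, and Gpnmb at 4.04, 4.53 and 6.04. Idi1 was at -2.87, -3.69 and -3.87. Hsd3b5 was at -0.93, -2.33 and -5.55. Saa2 was at 0.74, -2.79 and -0.66, with an SE of 1.17 at week 8 and 0.97 at week 16. The clock gene Dbp was at 2.72, 1.43 and -0.05, and Per1 at -0.77, 1.14 and 0.13. Cyp4a14 was at 3.17, 1.40 and -0.44. The median of the cholesterol synthesis genes at weeks 8, 12 and 16 was -1.70, -2.02 and -2.24.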

How the data were processed

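Whole-liver RNA of 16 samples at week 12 was compared, with weeks 8 and 16 beside it. Per the labels' protocols, RNA was extracted with TRIzol and column-purified, and libraries were made and sequenced by a company. The submitters' processing notes name HISAT2, featureCounts, DESeq2 and GRCm38. Their roles, the annotation and the strand setting are not given in the sources used here, so overlapping and antisense genes and near-identical copies are uncertain. The authors deposited 1 table of signal per week, gene counts divided by a size factor and expressed per 1000000 (FPM), with 918088 to 1140697 per week-12 column. Divided by what 1 read is worth in its column, 100% of values were whole to within 0.02 reads. There were 5.78 times as many values of 2 reads as of 1 read. If both reads of a pair were counted, read totals and the edgeR and DESeq2 fits hold more reads than independent fragments.

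Consecutive columns 1 to 4 and 5 to 8 of a diet were averaged to 1 library each. Genes with at least 1 FPM in at least 2 libraries were tested with limma 3.58.1 on log2(FPM + 0.5), with a mean-variance trend and Benjamini-Hochberg adjustment, two-sided, with 2 residual degrees of freedom. On the recovered reads edgeR 4.0.16 called 2115 genes and DESeq2 1.42.0 called 1849. The fits were tested on simulated data. Gene names are from GENCODE vM21 identifiers (54495 of 54532 matched), and promoters from RefSeq.

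Members and the 52 gene lists were chosen with earlier results of these data known. The genes named are the 10 largest rises and falls, the 5 largest changes in FPM in each direction, in each list the 3 smallest p-values, called members that moved against their list, genes that differed between weeks, and 16 genes followed whatever their p. Some genes that this rule names are not reported here. Further list members were named after their values were seen. Alternatives covered the pseudocount, filter, scaling, variance model, samples in the fit, merging, pairing and each library left out.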

Additional observations from a re-analysis of the deposited data

Results flagged for a closer look

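The diet effect differed between weeks 8 and 12 in 2 genes by the limma test of the difference itself. Orm3, an orosomucoid, was higher by 2.21 on the log2 scale at week 12 than at week 8, and Plin4, a lipid droplet coat protein, by 2.05. Neither gene was called with no filter, with no mean-variance trend or with all 14 groups in the fit.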

How the results depend on the processing

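The 2 libraries per diet limit every p-value. The count of 2078 genes was 1344 with no filter, 270 with all 14 groups in 1 fit and 5492 with each column as its own sample. With 1 library left out it ran from 818 to 3007, and the lone library is then assumed to vary like the other group. The difference from week 8 (2 genes) was called in 1 gene with a pseudocount of 0.1, in 0 with no filter, in 0 with no mean-variance trend, in 0 with all 14 groups, and in 0 to 5 with a library left out. The difference from week 16 (0 genes by limma, 1128 at an unadjusted p under 0.05) was called in 0 to 2. Of 180 called genes named by rule, 134 were called with each library left out in turn, 161 with equal library totals, 56 with all 14 groups and 176 by edgeR, and 0 reversed. DESeq2 kept 173 of these 180 calls. The causes were not tested.

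Library numbers did not pair the diets (r = 0.0165 across 13631 genes, which are not independent replicates). With the replicate block 2363 genes were called at week 12, 1 between weeks 8 and 12 and 0 between weeks 12 and 16.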
